A study of Drosophila melanogaster with 58 samples.

Results

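The proteasome is the protease that degrades ubiquitin-tagged proteins in every eukaryotic cell. Its barrel-shaped core is built from alpha subunits, which form the gated outer rings, and beta subunits, some of which carry the proteolytic sites. A regulatory cap sits on the core: the base holds the Rpt ATPases that unfold the substrate, together with the scaffold proteins Rpn1 and Rpn2 and the ubiquitin receptor Rpn13, and the lid holds Rpn11, the enzyme that removes the ubiquitin chain. Because the parts are needed in fixed proportions, cells are known to regulate the subunit genes together. In flies the transcription factor cnc is a known activator of them. Neurons depend on the proteasome for synaptic protein turnover.

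Every gene whose current or older symbol in the platform annotation begins with Rpn or Rpt and a digit, or with Prosalpha or Prosbeta, was taken, provided that a probe set matched that gene alone. This gave 40 genes of the 11983 that had such a probe set, each measured by 1 probe set, and all 40 were tested without a filter on dim signals. Of these, 26 encode the constitutive subunits: 7 of the lid (Rpn3, Rpn5, Rpn6, Rpn7, Rpn8, Rpn11 and Rpn12), 7 of the base (Rpn1, Rpn2, Rpn13, Rpt2, Rpt3, Rpt4 and Rpt5), 6 of the alpha rings (Prosalpha2 to Prosalpha7) and 6 of the beta rings (Prosbeta2 to Prosbeta7). The other 14 are paralogs, with a T or R after the number in the symbol, many of them known in flies as testis-specific versions of a subunit. Prosalpha1, Prosalpha1R, Prosbeta1, Rpn9, Rpn10, Rpt1, Rpt6 and Rpt6R were not analysed here. Of the 40 probe sets, 5 carry the suffix that the maker gives to probe sets able to bind several transcripts. They are those of Rpn6, Rpn13, Prosbeta5, Prosbeta7 and the paralog Rpn12R.

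The arrays profiled heads of Oregon R flies, a wild-type laboratory strain. All flies were adult unmated males, 10 days old at collection, kept 30 to a vial at 25 degrees C and fed their diet for 7 days. The groups were PTZ (Pentylenetetrazole, a convulsant and an antagonist of GABA-A receptors) given together with Levetiracetam (an anticonvulsant), with Glucosamine Hydrochloride (an amino sugar), with Mannitol (a sugar alcohol), with Olmesartan Medoxonil (an angiotensin receptor blocker), with Quinapril Hydrochloride (an inhibitor of angiotensin-converting enzyme) or with Oxaprozin (an anti-inflammatory drug); PTZ alone; Levetiracetam, Glucosamine Hydrochloride, Mannitol, Olmesartan Medoxonil, Moxifloxacin Hydrochloride (an antibiotic), Gemfibrozil (a lipid-lowering drug) or Quinapril Hydrochloride alone; and normal food. Each is called below by the first word of its name. There were 4 arrays in each of 14 groups and 2 for moxifloxacin, 58 in all. There was no group on oxaprozin alone. The labels state no dose. They do not state whether the flies behind the arrays of 1 group were raised apart, so the p-values cover the scatter among these arrays alone, and that scatter may be technical. Levels are log2 intensities, changes are log2 differences ± SE, and a gene was called, or said to rise or fall, at a Benjamini-Hochberg adjusted p under 0.05 in a limma fit over all 58 arrays and 18769 probe sets. The median SD of a constitutive subunit within a group lay between 0.038 for Prosalpha4 and 0.122 for Rpn1.

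The normal food arrays had the highest testis, gut, accessory gland and ejaculatory bulb markers, by a narrow margin for the accessory gland. On each array the median over the markers of a tissue was taken. For 12 testis markers it was 5.31 to 5.57 on normal food against 2.70 to 4.13 on all other arrays. For 5 gut markers it was 5.87 to 6.37 against 2.75 to 4.26, and for 11 accessory gland markers 5.88 to 6.16 against 2.47 to 5.84. Accessory gland markers were next highest with levetiracetam (4.96 to 5.84) and moxifloxacin (5.52 to 5.65). Both groups also lay next above normal food in the subunit level given below. Ejaculatory bulb markers were at 9.57 to 9.65 on normal food, 6.51 to 6.55 with moxifloxacin and 5.68 to 6.11 with gemfibrozil. All 12 testis, 11 accessory gland, 5 gut and both ejaculatory bulb markers were lower with PTZ than on normal food, with medians of -2.35, -2.94, -2.85 and -6.12. Of 7 pan-neuronal markers 6 were lower and 1 higher (median -0.45), and all 4 haemocyte markers were higher (0.83). Markers of the head were high in every group, with the median of 4 retina genes at 11.75 to 12.56 and that of 7 pan-neuronal genes at 8.90 to 10.23. The 5′ minus 3′ signal, taken on control probe sets for eIF-4a and GAPDH and lower where labelled RNA is shorter, also moved with the groups and is given beside the results it accompanies. In such bulk samples fewer cells of a type and less RNA per cell cannot be told apart.

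The constitutive subunits moved as a block across the 15 groups. For each array the 26 log2 values were averaged after each gene had been centred on the mean of its 15 group means. The level was highest with PTZ plus levetiracetam (0.60 ± 0.063, SD over 4 arrays) and PTZ plus oxaprozin (0.52 ± 0.022). PTZ alone (0.26 ± 0.033), mannitol (0.22 ± 0.041), PTZ plus olmesartan (0.17 ± 0.051), PTZ plus mannitol (0.12 ± 0.018), PTZ plus quinapril (0.12 ± 0.053), PTZ plus glucosamine (0.10 ± 0.014) and olmesartan (0.10 ± 0.036) followed. Quinapril lay at 0.03 ± 0.018, gemfibrozil at -0.22 ± 0.031, glucosamine at -0.26 ± 0.052, levetiracetam at -0.50 ± 0.041, moxifloxacin at -0.54 ± 0.034 (n = 2) and normal food at -0.74 ± 0.014. Neighbours in this order had overlapping arrays except at 5 places: PTZ plus oxaprozin lay above PTZ, olmesartan above quinapril, quinapril above gemfibrozil, glucosamine above levetiracetam, and moxifloxacin above normal food. All 4 normal food arrays lay below every other array.

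**Figure D1:**
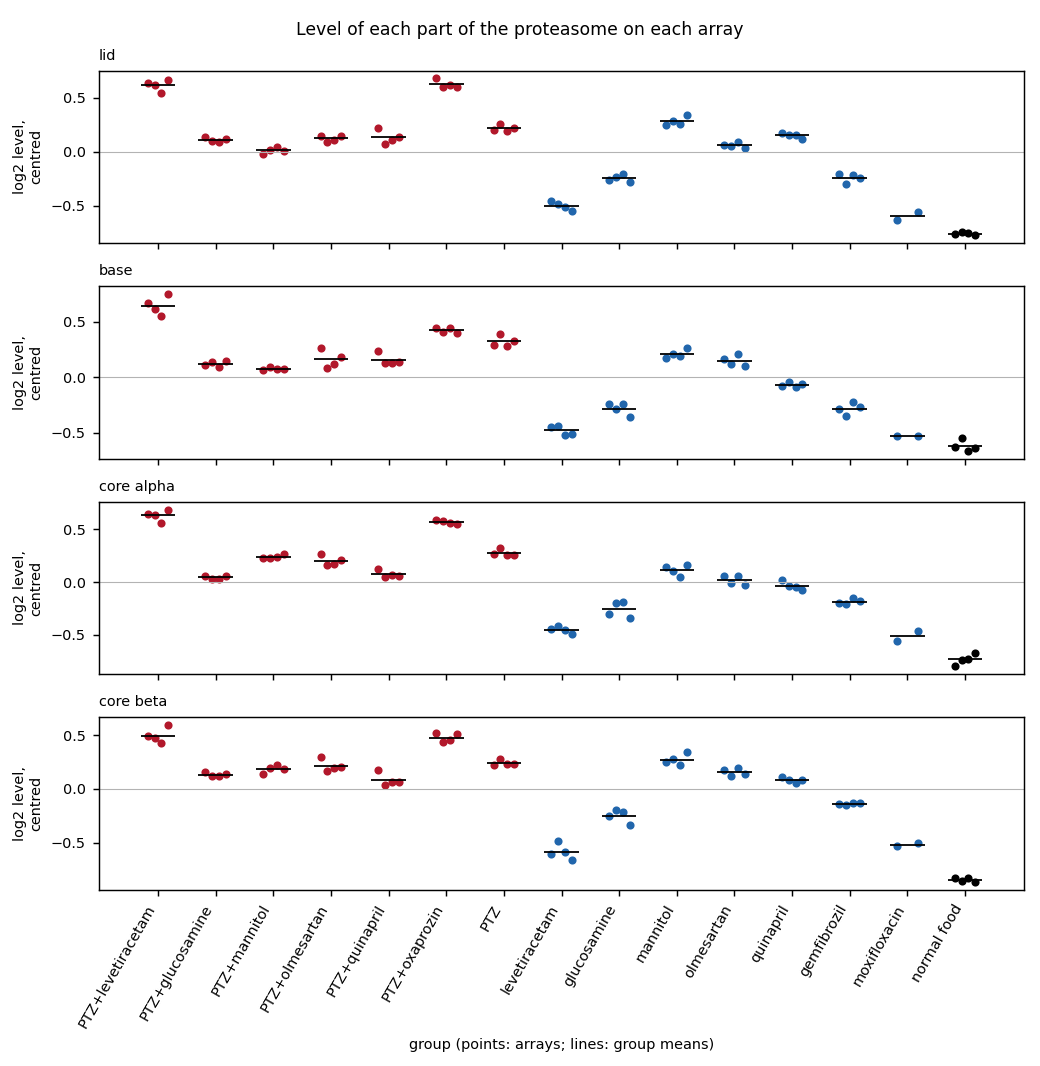
Level of the constitutive lid, base, core alpha and core beta subunits on each array (log2, each gene centred on the mean of its 15 group means, then averaged), by group, with points for arrays and lines for group means. PTZ groups are red, other compounds blue and normal food black; the 4 normal food arrays are the lowest in each panel.

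Lid, base and core spanned similar ranges. Between the lowest and the highest group mean the lid differed 2.61-fold, the base 2.41-fold, the alpha rings 2.58-fold and the beta rings 2.53-fold. The parts did not order the groups identically. The lid was at 0.63 ± 0.037 with PTZ plus oxaprozin and 0.62 ± 0.050 with PTZ plus levetiracetam, with overlapping arrays, whereas the base was at 0.42 ± 0.024 with PTZ plus oxaprozin and 0.65 ± 0.084 with PTZ plus levetiracetam, without overlap. With PTZ plus mannitol the lid was at 0.01 ± 0.027, the base at 0.08 ± 0.0082, the beta rings at 0.18 ± 0.037 and the alpha rings at 0.24 ± 0.021. With quinapril the lid lay at 0.15 ± 0.022 and the base at -0.07 ± 0.021.

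As a description over the 15 group means, 19 of the 26 subunits had a correlation above 0.9 with the mean of the other 25, a level that 1.91% of all probe sets reached with the mean of the subunits, and the median over the 26 was 0.93. The points also share differences in tissue markers and in the 5′ minus 3′ signal described below. Subunits of the same part were hardly more alike (median pairwise correlation 0.88) than subunits of different parts (0.86). Rpn1, a scaffold of the base that binds ubiquitin shuttle proteins, followed the others most closely (0.98), with Prosbeta7 at the same value. The lowest were Prosalpha4 (0.62), Prosbeta4 (0.67), Rpn6 (0.79) and Prosalpha5 (0.83). After group means were removed, the median correlation over the 58 arrays was 0.51. The 14 paralogs did not follow the block: their median correlation with the subunit mean was -0.32, with the highest at 0.29 for Prosalpha3T. Their signals were dim, with means over the arrays of 2.0 to 4.4, which limits what these correlations can show.

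**Figure D2:**
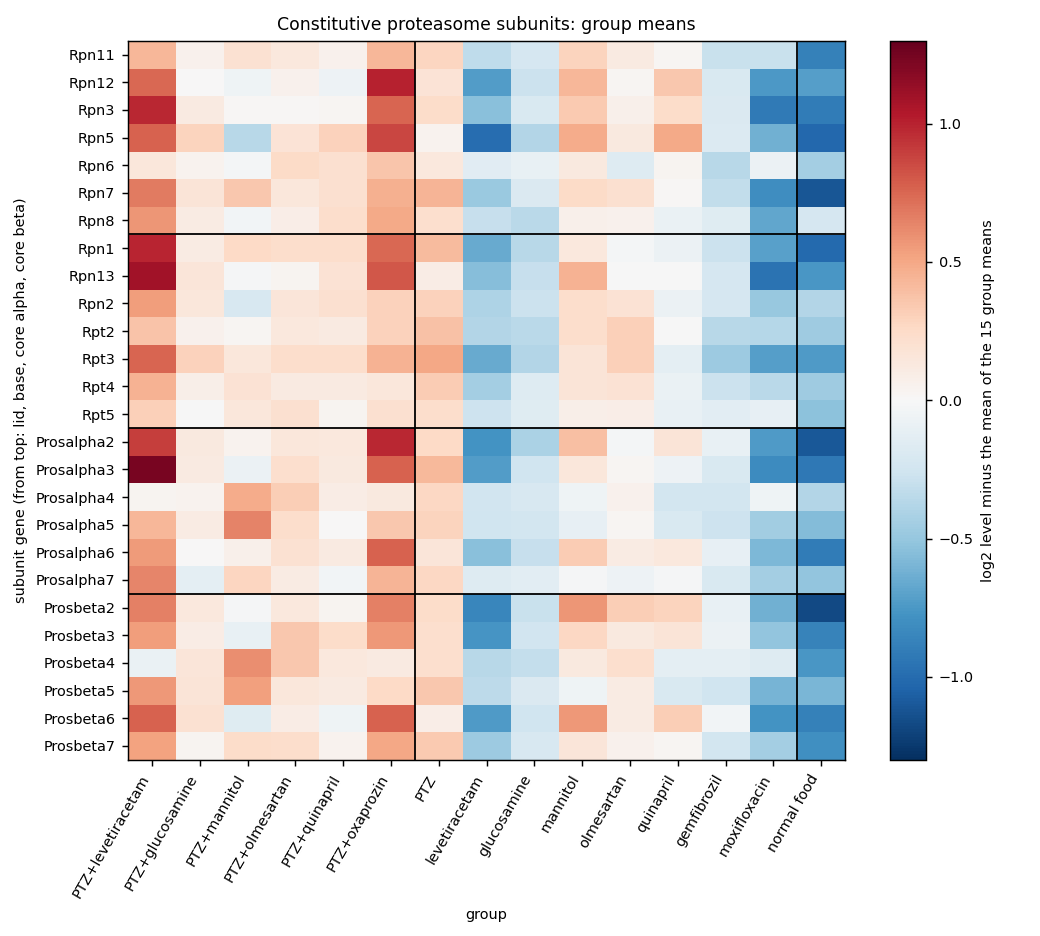
Group means of the 26 constitutive subunits (rows, ordered lid, base, core alpha, core beta from the top) in 15 groups (columns), as log2 level minus the mean of the gene's 15 group means; red is higher, blue lower. Combinations with PTZ are on the left, PTZ and the other compounds in the middle, normal food on the right; Prosalpha4 and Prosbeta4 are highest with PTZ plus mannitol, and the columns of PTZ plus levetiracetam and PTZ plus oxaprozin hold the deepest red in most other rows.

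The 5′ minus 3′ control signal ran in much the same order as the subunit level, with a correlation of 0.82 over the 15 group means. It was -4.14 ± 0.23 with PTZ plus levetiracetam, -4.73 ± 0.17 with PTZ plus oxaprozin, -5.67 ± 0.090 with PTZ and -6.42 ± 0.22 on normal food. The correlation of the subunit level with the testis markers was -0.76, with the accessory gland markers -0.83, with the gut markers -0.75 and with the retina markers 0.79. The part of these measures in the subunit levels was not tested beyond the fits with the 5′ minus 3′ signal as a covariate given below.

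**Figure D3:**
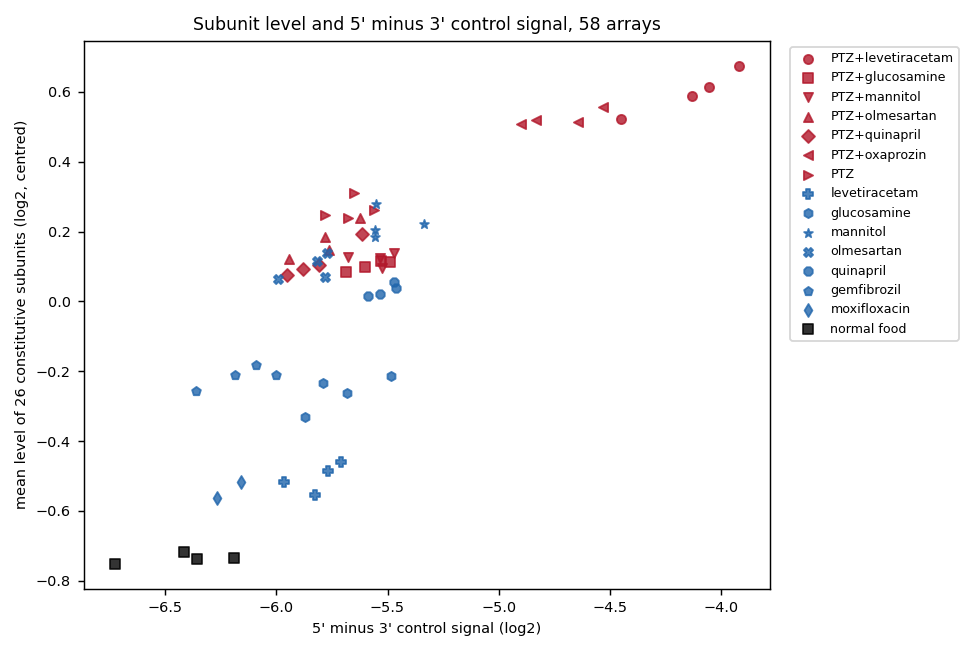
Mean level of the 26 constitutive subunits (log2, centred; vertical axis) against the 5′ minus 3′ signal of the control probe sets (log2; horizontal axis) on each of the 58 arrays, with a marker for each group, PTZ groups red, other compounds blue and normal food black. PTZ plus levetiracetam and PTZ plus oxaprozin lie at the upper right and normal food at the lower left.

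The first comparison asked what each compound fed alone did to the subunits. With PTZ all 26 constitutive subunits rose against normal food, with a median change of 0.97 (1.96-fold), where 23.9% of all probe sets rose and 26.4% fell. All 7 lid subunits rose (median 1.07), as did 7 of the base (0.85), 6 of the alpha rings (0.96) and 6 of the beta rings (1.03), and in all 26 the PTZ arrays lay clear of the normal food arrays, as in 44.1% of all probe sets. The median over all probe sets was -0.02.

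In the lid the greatest rise was that of Rpn7, a scaffold subunit. Its level was 7.11, 7.21, 7.16 and 7.28 on the PTZ arrays, against 5.54, 5.80, 5.61 and 5.61 on the normal food arrays, a change of 1.55 ± 0.071 (2.93-fold, limma adjusted p = 1.56e-24). The smallest was that of Rpn8, the partner of the deubiquitinase Rpn11, at 8.05 to 8.11 with PTZ and 7.59 to 7.74 on normal food (0.43 ± 0.042, 1.35-fold). Both pairs of ranges were separate.

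In the base Rpn1 led, at 6.50, 6.62, 6.46 and 6.55 with PTZ against 4.81, 5.51, 5.13 and 5.01 on normal food (1.42 ± 0.093, limma adjusted p = 1.76e-18). Rpn2, the other large scaffold, changed least (0.68 ± 0.038). Among the alpha rings the extremes were Prosalpha2 (1.36 ± 0.055) and Prosalpha4 (0.65 ± 0.038).

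Prosbeta2, which carries the trypsin-like site, had the greatest rise of the beta subunits, at 8.45, 8.50, 8.47 and 8.40 with PTZ against 7.19, 7.02, 7.02 and 6.95 on normal food (1.41 ± 0.051, 2.66-fold, limma adjusted p = 1.15e-28). Prosbeta5, which carries the chymotrypsin-like site, rose least (0.95 ± 0.041, 1.93-fold), so the beta rings had the narrowest spread of changes of the parts.

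Set against the mean of the 7 other compounds in place of normal food, all 26 subunits were again called higher with PTZ, with a median of 0.41, where 19.1% of all probe sets were called higher and 19.8% lower. With the 5′ minus 3′ signal as a covariate 26 were called higher against normal food, with a median of 0.87, where 17.4% of all probe sets were called higher and 20.6% lower. The signal was -5.78 to -5.56 with PTZ and -6.73 to -6.19 on normal food. As these ranges did not overlap, this fit cannot tell the signal and PTZ apart.

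Every other compound was compared with the same 4 normal food arrays, so these comparisons share their control. The arrays also fell into 2 levels of bioB, a bacterial control added before hybridization. All mannitol, gemfibrozil and moxifloxacin arrays were of the upper level and all normal food arrays of the lower. For these 3 compounds the bioB level and the compound cannot be told apart. With mannitol 26 of 26 constitutive subunits rose, with a median of 1.01, where 22.9% of all probe sets rose and 25.4% fell. Prosbeta2 was at 8.74, 8.82, 8.76 and 8.85 with mannitol (1.74 ± 0.051, 3.35-fold, against the normal food values above). Rpn5, a lid scaffold, was at 8.73, 8.84, 8.84 and 8.80 with mannitol against 7.29, 7.28, 7.29 and 7.34 on normal food (2.83-fold, limma adjusted p = 1.41e-32). Prosalpha2 (1.49 ± 0.055) and the ubiquitin receptor Rpn13 (1.21 ± 0.079) led their parts, and the smallest changes were those of Rpn8 (0.28 ± 0.042) and Prosalpha4 (0.32 ± 0.038).

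Olmesartan raised 26 of 26, with a median of 0.90, where 25.7% of probe sets rose and 24.4% fell. Prosbeta2 changed by 1.49 ± 0.051, Rpn7 by 1.32 ± 0.071 and Rpn8 by 0.27 ± 0.042. Quinapril also raised 26 of 26, with a median of 0.79, where 25.1% rose and 24% fell. The extremes with quinapril were Rpn5 (1.51 ± 0.044) and Prosbeta2 (1.46 ± 0.051) on one side and Rpn8 (0.13 ± 0.042, limma adjusted p = 0.00808) on the other. The call of Rpn8 with quinapril was lost with a second quantile normalization, with only the groups compared and with the 5′ minus 3′ covariate.

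With gemfibrozil 24 of 26 rose, with a median of 0.55, where 25.3% of all probe sets rose and 20.8% fell; Rpt2 and Rpn8 were not called. Prosbeta2 changed by 1.07 ± 0.051. Rpn6, which clamps the lid onto base and core, changed by 0.09 ± 0.037 (limma adjusted p = 0.0394), a call lost without either of 2 normal food arrays or any of 3 gemfibrozil arrays.

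Glucosamine raised 24 and lowered 1, with a median of 0.45, where 22.4% rose and 18.9% fell. Rpn7 changed by 0.92 ± 0.071. The member that fell was Rpn8 (-0.13 ± 0.042, limma adjusted p = 0.00876), and that call was lost without 1 normal food array (adjusted p = 0.0723) and with only the groups compared (adjusted p = 0.103).

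Levetiracetam raised 18 of 26, with a median of 0.26, where 21% rose and 17.3% fell. All 6 alpha subunits rose, 5 of 6 beta and 4 of 7 lid subunits, but 3 of 7 in the base. Rpn7 (0.63 ± 0.071) and Rpn11 (0.55 ± 0.046) changed most.

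Moxifloxacin, with 2 arrays, raised 13 and lowered 2, with a median of 0.21, where 17.6% rose and 19.9% fell. Rpn11 (0.59 ± 0.056) and Prosbeta4 (0.59 ± 0.051) rose most. Rpn8 was at 7.11 and 7.25 with moxifloxacin against 7.59 to 7.74 on normal food (-0.46 ± 0.051, limma adjusted p = 9.68e-11). Rpn2 changed by -0.11 ± 0.047, a call lost without any of 3 normal food arrays or 1 moxifloxacin array.

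A further comparison replaced normal food by the mean of the remaining compounds fed without PTZ. Mannitol then had 26 subunits called higher (median 0.47), where 16.6% of all probe sets were called higher and 18.8% lower. Olmesartan had 24 higher and 1 lower (median 0.29; 18.7% and 16%), and quinapril 20 higher and 1 lower (median 0.19; 20.4% and 20.1%).

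The medians of the other 4 compounds were negative in this comparison. Levetiracetam had 23 of 26 called lower (median -0.36; 24.2% of all probe sets higher and 23.4% lower), with Rpn7 at -0.34 and Rpn11 at -0.27. Moxifloxacin had 1 higher and 22 lower (median -0.47; 20% and 21.6%), and glucosamine 14 lower (median -0.10; 13.8% and 14%). Gemfibrozil had 1 higher and 8 lower (median -0.04; 19.6% and 14.5%), with Rpn6 at -0.30.

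The combinations were compared with PTZ alone, which asks what the second compound added. PTZ plus levetiracetam raised 20 constitutive subunits and lowered 2, with a median of 0.29, where 18.4% of all probe sets rose and 20% fell. Rpn13 had the greatest rise, at 8.26, 8.02, 8.06 and 8.16 with the combination against 7.07, 7.23, 7.17 and 7.08 with PTZ (0.99 ± 0.079, 1.98-fold, limma adjusted p = 3.48e-15). Prosalpha3 (0.81 ± 0.057), Rpn3 of the lid (0.74 ± 0.053) and Prosbeta6 (0.69 ± 0.050) led the other parts.

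The members that fell were Prosalpha4 and Prosbeta4. Prosalpha4 was at 8.30, 8.27, 8.25 and 8.23 with PTZ plus levetiracetam against 8.50, 8.48, 8.48 and 8.51 with PTZ (-0.23 ± 0.038). Prosbeta4 was at 9.31, 9.19, 9.11 and 9.32 against 9.50, 9.55, 9.52 and 9.55 with PTZ (-0.30 ± 0.041). Neither pair of groups overlapped, as in 36.8% of all probe sets.

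PTZ plus oxaprozin raised 16 and lowered 2, with a median of 0.19, where 17.8% rose and 17.8% fell. The rises were greatest for Rpn12, a lid subunit (0.83 ± 0.066), Rpn5 (0.82 ± 0.044), Prosalpha2 (0.72 ± 0.055), Rpn13 (0.70) and Prosbeta6 (0.68 ± 0.050). Prosalpha4 (-0.14 ± 0.038) and the ATPase Rpt4 (-0.19 ± 0.056) fell. In the base 2 of 7 rose, against 6 of 7 in the lid.

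Both combinations had the highest 5′ minus 3′ signals of the study. With that signal as a covariate 7 subunits were called higher and 3 lower with PTZ plus levetiracetam (median -0.06), where 5.96% of all probe sets were called higher and 12.3% lower. With PTZ plus oxaprozin 9 were then higher and 8 lower (median 0.03), where 9.55% and 14.7% of all probe sets were. The signal was -4.45 to -3.92 with PTZ plus levetiracetam, -4.90 to -4.53 with PTZ plus oxaprozin and -5.78 to -5.56 with PTZ. As it did not overlap with that of PTZ, this fit cannot tell the signal and the second compound apart.

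The other combinations lay slightly below PTZ. All arrays of PTZ plus glucosamine and PTZ plus mannitol were of the upper bioB level and all PTZ arrays of the lower. In these comparisons the bioB level and the second compound cannot be told apart. PTZ plus glucosamine raised 1 and lowered 16, with a median of -0.18, where 11.7% rose and 12.4% fell. Prosalpha7 fell most (-0.40 ± 0.054) and Rpn5 rose (0.25 ± 0.044). PTZ plus quinapril also raised 1 and lowered 16, with a median of -0.20, where 9.82% rose and 11.6% fell, and the extremes were again Prosalpha7 (-0.31 ± 0.054) and Rpn5 (0.26 ± 0.044). PTZ plus olmesartan raised 3 and lowered 11, with a median of -0.12, where 15.5% rose and 14.9% fell. After a second quantile normalization 7 were lower, a fit in which the share of all probe sets was not taken. In the main fit Rpn7 fell (-0.29 ± 0.071) and Rpn5 changed by 0.13 ± 0.044, a call lost without 1 PTZ array. Against the mean of the other combinations in place of PTZ, Rpn5 turned to -0.060 with PTZ plus glucosamine, -0.048 with PTZ plus quinapril and -0.19 with PTZ plus olmesartan (limma adjusted p = 6.93e-06), the last alone being called.

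PTZ plus mannitol raised 4 and lowered 14, with a median of -0.16, where 14.7% rose and 18.8% fell. Rpn2 (-0.50 ± 0.038) and Prosalpha3 (-0.49 ± 0.057) fell most. All 4 that rose were core subunits: Prosbeta4 (0.39 ± 0.041), Prosalpha5 (0.35 ± 0.045), Prosalpha4 (0.21) and Prosbeta5 (0.18). The means of the other core subunits were lower than with PTZ, except that of Prosalpha7 (7.64 against 7.63).

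PTZ was also added to 5 foods that held a drug, which gives its effect in other backgrounds. In the levetiracetam background all 26 subunits rose, with a median of 1.05, where 22.7% of all probe sets rose and 27.9% fell. Prosalpha3 changed by 1.97 ± 0.057 (3.91-fold), at 8.12, 8.31, 8.08 and 8.26 with PTZ plus levetiracetam against 6.23, 6.19, 6.36 and 6.12 with levetiracetam. Rpn5 changed by 1.76 ± 0.044. Prosbeta4 had the smallest change (0.27 ± 0.041), which turned to -0.04 with the 5′ minus 3′ covariate.

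In the glucosamine background 25 of 26 rose, with a median of 0.36, where 15.2% rose and 15.9% fell. Rpn5 (0.68 ± 0.044) and the ATPase Rpt3 (0.67 ± 0.066) led, and Prosalpha7 was not called (0.01). All glucosamine arrays were of the lower bioB level and all of PTZ plus glucosamine of the upper, so that level and PTZ cannot be told apart here.

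The mannitol background split the members. With PTZ 5 rose and 14 fell, with a median of -0.13, where 21.1% rose and 22% fell. Rpn5 was between 7.90 and 8.03 on the 4 arrays of PTZ plus mannitol, against 8.73 to 8.84 with mannitol (-0.84 ± 0.044), and Prosbeta6 fell by 0.73 on the log2 scale. The 5 that rose were all of the core: Prosalpha5 (0.75 ± 0.045), Prosbeta5 (0.59 ± 0.041), Prosalpha4 (0.54 ± 0.038), Prosbeta4 (0.47 ± 0.041) and Prosalpha7 (0.30 ± 0.054). The core was divided too. The means of its other subunits were lower with PTZ plus mannitol than with mannitol, except that of Prosbeta7 (9.43 against 9.34). Prosalpha5 was at 9.07, 8.87, 8.95 and 8.95 with PTZ plus mannitol against 8.16, 8.25, 8.17 and 8.26 with mannitol, and Prosbeta4 at 9.90, 9.92, 9.91 and 9.93 against 9.46, 9.43, 9.38 and 9.49.

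In the olmesartan background 11 rose and 2 fell, with a median of 0.05, where 13.3% rose and 15.2% fell. Rpn6 rose most (0.42 ± 0.037) and was the 1 lid subunit called, and Prosbeta2 fell (-0.19 ± 0.051). Without 1 array of PTZ plus olmesartan 7 subunits were called higher, and 6 with only those 2 groups fitted or with only the arrays at the lower bioB control level. The shares of all probe sets in these other fits were not taken. In the quinapril background 14 rose and 5 fell, with a median of 0.15, where 20.3% rose and 20.2% fell. Rpt3 rose (0.35 ± 0.066) and Rpn12 fell (-0.41 ± 0.066), and 6 of 7 base subunits rose against 3 of 7 in the lid.

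**Figure D4:**
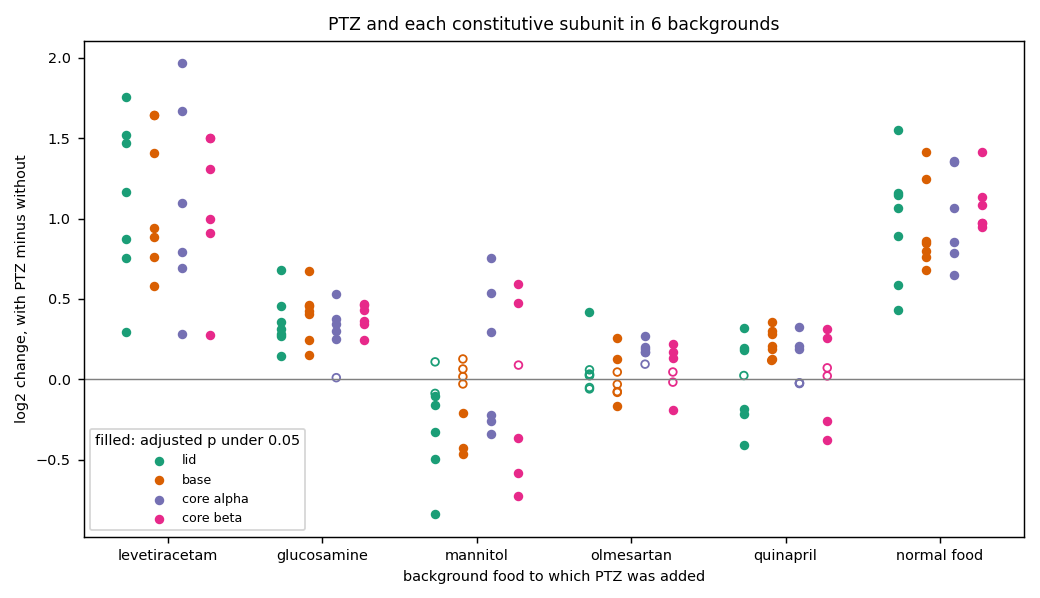
Change of each constitutive subunit when PTZ was added (log2, with PTZ minus without; vertical axis) in 6 background foods (horizontal axis), with colours for lid, base, core alpha and core beta and filled points for an adjusted p under 0.05. All 26 points lie above 0 for levetiracetam, glucosamine and normal food, and the mannitol, olmesartan and quinapril backgrounds have points on both sides of 0.

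The difference between the PTZ effect in a drug background and that on normal food was tested directly. It was called negative for 25 subunits with glucosamine (median -0.60, where 17.1% of all probe sets were called higher and 19.3% lower), for 24 with mannitol (median -1.26; 21.9% and 22.1%), for 26 with olmesartan (median -0.93; 23.1% and 23.5%) and for 25 with quinapril (median -0.95; 21.3% and 21%). In each of these the drug alone already lay above normal food, and all 4 differences use the normal food arrays. Levetiracetam alone also lay above normal food (18 of 26 rose, median 0.26), and its difference, given next, uses those arrays too. Rpn7 had the greatest difference with glucosamine (-1.19 ± 0.101) and olmesartan (-1.61 ± 0.101), and Prosbeta2 with mannitol (-2.00 ± 0.073) and quinapril (-1.67 ± 0.073). Rpn5 differed by -1.90 ± 0.062 with mannitol.

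With levetiracetam the difference went both ways, with 10 subunits called higher and 7 lower (median 0.09, where 16.7% were called higher and 19% lower). Rpn13 stood at one end (0.79 ± 0.111) and Prosbeta4 at the other (-0.70 ± 0.059). With the 5′ minus 3′ covariate 6 were called higher and 9 lower (median -0.09; 11.3% and 17.1% of all probe sets).

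Taking each background as 1 unit, with 6 pairs of group means, the change with PTZ was positive on average for all 26 subunits (median 0.39), but 1 was called, Prosalpha4 (0.38 ± 0.071, limma adjusted p = 0.0366), where 1.18% of probe sets were called higher and 1.77% lower. Over the 5 pairs without normal food the median was 0.30 and 0 of 26 were called in limma, where 0.517% of all probe sets were called higher and 0.49% lower. In the same fit 5 subunits had an unadjusted p under 0.05, a threshold at which the share of all probe sets was not taken. These pairs were added after the data were seen. Rpn1, Rpt5, Prosalpha4, Prosalpha5, Prosbeta4, Prosbeta5 and Prosbeta7 were the 7 whose means were higher with PTZ in all 6 backgrounds. The shares of all probe sets higher in all 6, or positive on average, were not taken, so these counts have no background beside them.

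Prosalpha4 and Prosbeta4, singled out after their values were seen, followed the block least. Both were highest with PTZ plus mannitol (8.70 ± 0.025 and 9.92 ± 0.013) and second highest with PTZ plus olmesartan, while 15 other subunits were highest with PTZ plus levetiracetam. Prosalpha5 was also highest with PTZ plus mannitol (8.96 ± 0.081).

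The 14 paralogs lay near the lower end of the scale, with means over the arrays of 2.0 to 4.4, so the size of their changes is uncertain. Against normal food 5 of 14 fell with PTZ, where 26.4% of all probe sets fell: Rpn13R, Prosalpha6T and Rpn12R (-0.41 ± 0.130, -0.41 ± 0.091 and -0.38 ± 0.098), Prosalpha4T2 and Prosbeta5R1 (-0.25 each). Prosalpha6T and Rpn12R were highest on normal food, the group with the highest testis markers. Each of the other paralogs was highest in another group, and Prosalpha3T was lowest on normal food (2.40). Against the mean of the 7 other compounds the changes of Prosalpha6T and Rpn12R with PTZ were 0.00 and 0.02.

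Rpn13R, the paralog of the ubiquitin receptor and the brightest of the 14, was lower with PTZ in all 6 backgrounds. It was at 3.53, 3.28, 3.79 and 3.46 with PTZ plus olmesartan against 4.40, 4.35, 4.54 and 4.50 with olmesartan (-0.93 ± 0.130, limma adjusted p = 6.73e-08), without overlap, as in 28.3% of all probe sets. With PTZ plus levetiracetam it was at 4.19, 4.53, 3.93 and 4.27 against 4.90, 4.85, 5.16 and 4.71 with levetiracetam (-0.68 ± 0.130). The changes in the glucosamine, mannitol and quinapril backgrounds were -0.62 ± 0.130, -0.51 ± 0.130 and -0.49 ± 0.130.

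On normal food Rpn13R was at 4.16, 4.27, 4.07 and 4.19 with PTZ against 4.63, 4.78, 4.67 and 4.24 without (limma adjusted p = 0.00682), and 1 normal food array overlapped the PTZ arrays. Over the 6 pairs of group means it changed by -0.61 ± 0.076 (limma adjusted p = 0.012) and over the 5 pairs without normal food by -0.64 ± 0.082 (adjusted p = 0.0279). With the 5′ minus 3′ covariate the calls on normal food (adjusted p = 0.0631) and with levetiracetam (adjusted p = 0.105) were lost, at changes of -0.47 and -0.80. The constitutive gene Rpn13 moved the other way on normal food (0.86) and with levetiracetam (1.65). Its mean was also higher with PTZ in the glucosamine (7.19 against 6.74), quinapril (7.22 against 7.03) and olmesartan (7.07 against 7.03) backgrounds. Only in the mannitol background did both genes fall.

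**Figure D5:**
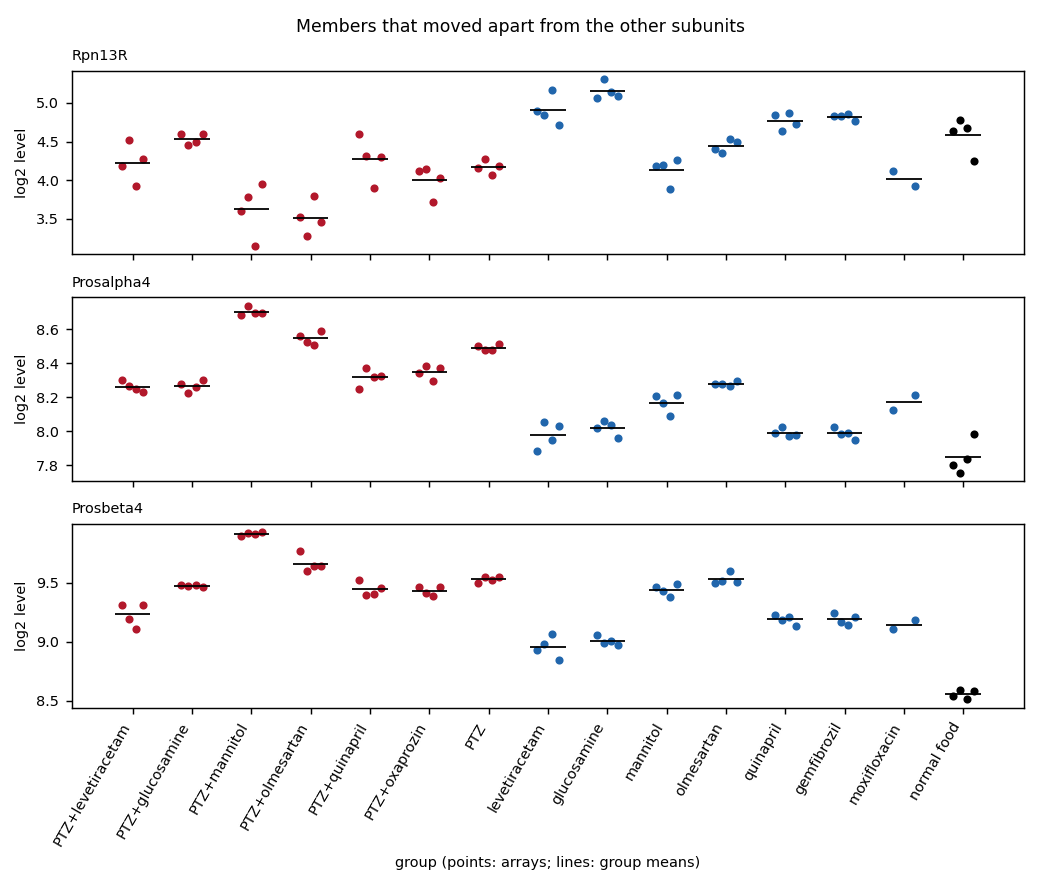
Log2 level of Rpn13R, Prosalpha4 and Prosbeta4 on each array by group, with points for arrays and lines for group means; PTZ groups are red, other compounds blue and normal food black. Rpn13R is lowest with PTZ plus olmesartan and PTZ plus mannitol, where Prosalpha4 and Prosbeta4 are highest.

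Genes around the proteasome were examined in 7 lists, and the share of all probe sets in this comparison was again 23.9% higher and 26.4% lower. With PTZ against normal food all 8 genes of the COP9 signalosome, a complex built like the lid that removes the ubiquitin-like protein Nedd8 from cullin ligases, rose with a median of 0.61, among them CSN7 (0.76 ± 0.061), CSN3 (0.70 ± 0.047) and alien (0.69 ± 0.049). All 4 ubiquitin genes rose by less (median 0.28), led by the polyubiquitin gene Ubi-p63E (0.45 ± 0.030) and followed by RpL40 (0.36 ± 0.034) and Ubi-p5E (0.21 ± 0.042), whose call was lost with a second quantile normalization (adjusted p = 0.302). All 4 measured genes of the p97 machinery, which extracts tagged proteins from complexes, rose with a median of 0.55, with p47 (0.69 ± 0.056), Npl4 (0.67 ± 0.048) and Ufd1 (0.43 ± 0.055) ahead. Against the other compounds Npl4 changed by 0.07 and was not called.

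Of 7 activators and bound factors 3 rose and 1 fell. PI31, a proteasome-binding regulator, changed by 0.55 ± 0.059, and the deubiquitinases Usp14 and Uch-L5 by 0.52 ± 0.042 and 0.48 ± 0.084, while rngo, a shuttle protein, fell (-0.39 ± 0.047). The assembly chaperone gene Pomp was not called. The call of Uch-L5 was lost with the 5′ minus 3′ covariate and against the other compounds.

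Of 16 ubiquitin ligase genes 4 rose and 8 fell (median -0.22), the first near the share of all probe sets, with HUWE1 (-0.93 ± 0.045), ctrip (-0.72 ± 0.066) and Ubr1 (-0.64 ± 0.081) the most changed. Against the other compounds ctrip changed by -0.03 and was not called. A list of 7 activating and conjugating enzymes also held Uba3, of the pathway of the ubiquitin-like protein Nedd8, and Uba2, of that of SUMO. Of the 7, 2 rose and 3 fell, with Uba3 at 0.54 ± 0.055, Ubc2 at -0.50 ± 0.052 and ben at -0.39 ± 0.061; ben was not called with the 5′ minus 3′ covariate.

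In the list of cnc, its partners and antioxidant genes 5 of 8 rose and 1 fell. GstD1, a glutathione transferase, rose by 1.37 ± 0.048, maf-S, the DNA-binding partner of cnc, by 0.85 ± 0.029, and ref(2)P, a receptor that carries ubiquitinated proteins to autophagy, by 0.69 ± 0.047. The gene that fell was cnc itself (-0.24 ± 0.038), and it was not called against the other compounds (-0.02).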

How the data were processed

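Total RNA from fly heads, 250 ng per sample, was labelled with a 3′ IVT kit, per the labels' protocols, and hybridized to Affymetrix Drosophila Genome 2.0 arrays. The authors deposited log2 values made with RMA, per the submitters' processing notes. Limma is named there too, without versions. RMA gives every array the same distribution of probe signals, so a shift common to most genes cannot be seen, and it compresses differences between dim probe sets. Of 18952 probe sets 183 controls were left out, which left 18769. Array medians ran from 3.68 to 3.85. The number of arrays limits the precision.

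Members were found by symbol, and the members and gene lists were chosen with earlier results of these data known. Lid, base, core alpha and core beta were kept apart, and symbols with T or R after the number were counted as paralogs. Within each comparison and part the called constitutive members with the greatest and smallest change, called members against the majority and called paralogs could be named, and up to 3 called genes of each other list.

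Group means were fitted jointly on all 58 arrays with limma 3.58.1 under R 4.3.3, with 43 residual and 3.88 prior degrees of freedom. P-values were adjusted by Benjamini-Hochberg within each comparison over all probe sets. The code was tested on simulated data. Replicate numbers did not pair the arrays: of 74 same-number pairs the median correlation of deviations was 0.0029, and no comparison had every correlation above 0.1. The eIF-4a and GAPDH controls were averaged for the 5′ minus 3′ signal, and bioB levels, of a bacterial control added before hybridization, fell into a lower class of 38 arrays and an upper class of 20, split where bioB minus bioC is -3. The alternatives dropped each array in turn, dropped the 40% dimmest probe sets, quantile normalized again, used a robust prior with a variance trend, fitted only the groups concerned, blocked on replicate number, added the 5′ minus 3′ covariate, kept only the lower bioB level, or changed the comparison group. Figures were drawn with Python and matplotlib. No sequence is shown.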

Additional observations from a re-analysis of the deposited data

Results flagged for a closer look

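The effect of PTZ on the constitutive subunits differed between backgrounds by the test of the difference itself. Against the effect on normal food it was called lower for 25 subunits with glucosamine (19.3% of all probe sets), 24 with mannitol (22.1%), 26 with olmesartan (23.5%) and 25 with quinapril (21%). With levetiracetam it was called higher for 10 (16.7%) and lower for 7 (19%), with a median of 0.09. Among single members Rpn13 (0.79) and Prosbeta4 (-0.70) differed with levetiracetam, Rpn7 with glucosamine (-1.19) and olmesartan (-1.61), Prosbeta2 with mannitol (-2.00) and quinapril (-1.67), Rpn5 with mannitol (-1.90) and Rpn13R with olmesartan (-0.52). The last was lost without 1 normal food array (adjusted p = 0.0644), without 1 array of PTZ plus olmesartan (0.0508) and with the 5′ minus 3′ covariate (0.111). All of these differences use the 4 normal food arrays, whose testis, accessory gland and gut markers were the highest of the study; the part of those markers was not tested.

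In 8 of 231 sets of 4 arrays 1 array lay far from the other 3 relative to their range, fewer than the 1 in 20 that chance gives. With PTZ plus quinapril the base level was 0.24 on 1 array against 0.12 to 0.14 on the others, and Prosalpha7 was at 7.44 on that array against 7.28 to 7.29. On 1 PTZ array the alpha rings were at 0.32 against 0.26 to 0.27 and the beta rings at 0.28 against 0.23. Rpn5 was at 8.27 on 1 PTZ array against 8.40 on the other 3, and at 7.34 on 1 normal food array against 7.28 to 7.29. Npl4 was at 7.58 on that normal food array against 7.64 to 7.65, and CSN3 at 6.74 on another against 6.56 to 6.59.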

How the results depend on the processing

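The count of 26 subunits higher with PTZ than on normal food was the same under every setting within the array fits, but was 1 over 6 pairs of group means and 0 over the 5 pairs without normal food (limma, 5 at an unadjusted p under 0.05); over those 5 pairs Prosalpha6T (0.0088) and Rpn12R (0.039) turned positive. With the mean of the other groups of the same kind as the comparison group, levetiracetam and glucosamine had 0 subunits called higher in limma (23 and 14 lower) and moxifloxacin and gemfibrozil 1 each (22 and 8 lower). There the sign turned for Prosalpha6T (0.0041) and Rpn12R (0.015) with PTZ, Rpn7 (-0.34) and Rpn11 (-0.27) with levetiracetam, Rpn7 (-0.00190) with glucosamine, Rpn11 (-0.22) and Prosbeta4 (-0.073) with moxifloxacin, Prosbeta2 (-0.00153) and Rpn6 (-0.30) with gemfibrozil, and Rpn5 with PTZ plus glucosamine (-0.060), olmesartan (-0.19) and quinapril (-0.048). With the 5′ minus 3′ covariate 7 were higher with PTZ plus levetiracetam than with PTZ, 9 with PTZ plus oxaprozin and 6 for the levetiracetam difference, and Prosbeta4 was at -0.041 with PTZ plus levetiracetam against levetiracetam. For PTZ plus olmesartan against olmesartan 6 were higher with only those groups fitted and 6 with only arrays of the lower bioB level, and 7 to 11 when each array was left out; against PTZ 7 were lower after a second quantile normalization. That normalization put the level over all subunits at -0.49 with moxifloxacin and -0.69 on normal food, the lid at 0.19 with PTZ, -0.54 with moxifloxacin and -0.71 on normal food, the base at -0.46 with moxifloxacin, the alpha rings at 0.25 with PTZ, and the beta rings at -0.15 with gemfibrozil and -0.82 on normal food. Causes were not tested. For PTZ against normal food the covariate fit cannot tell the 5′ minus 3′ signal and PTZ apart. The groups on mannitol, moxifloxacin, gemfibrozil, PTZ plus glucosamine and PTZ plus mannitol had no arrays of the lower bioB level, so that setting gave no value for their comparisons. All arrays of normal food, PTZ and glucosamine were of the lower level. Comparisons of the former groups with the latter cannot tell the bioB level and the compound apart. The mean over a gene's probe sets was not run as each member had 1. Replicate numbers did not pair the arrays (20 of 74 correlated best with their own number, 2 above 0.1), and with the replicate number as a block 26 were higher with PTZ than on normal food, 17 lower with PTZ plus glucosamine than with PTZ, 13 higher with PTZ plus quinapril than with quinapril, and of 107 named results 1 was lost, Rpn2 with moxifloxacin (-0.11, adjusted p = 0.0746). The share of all probe sets was not taken for counts with an array left out, a second normalization or only the groups fitted. Nor was it taken for the lower bioB level and the replicate block. Dim signals limit the paralogs.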
